A study of Mus musculus with 4 samples.

Results

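The named long non-coding RNA (lncRNA) genes of the rat were followed in RNA from exosomes, small vesicles that cells shed into their medium. They are the 51 genes that the deposited gene table classes as lncRNA or lincRNA and lists under a gene symbol rather than a name starting with LOC, RGD, ENSRNOG, AABR or AC and digits, without H19, out of 42977 genes in the table. All 51 carry the class lncRNA, and 10073 further lncRNA and lincRNA genes of the table have only such a name. The choice used names and classes alone and no measured value. The members range from 153 to 12402 bases in listed length and lie on 20 chromosomes, 27 on the plus and 24 on the minus strand. Coordinates are those of the deposited table, on the rat build rn6.

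The vesicles came from mesenchymal stem cells (MSCs) grown from the bone marrow of male SD rats and used at passages 3 to 4. Cells of the control group (MSC-Exo, 2 libraries, here control vesicles) received the solvent DMSO. Cells of the other group (MSCATV-Exo, 2 libraries, here statin vesicles) received 1 µmol/L atorvastatin, a statin, which blocks the rate-limiting enzyme of cholesterol synthesis. The labels give the exposure as 24 h in one place and as 48 h in another, and describe both ultracentrifugation and a precipitating reagent for vesicle isolation. Whether the libraries of a group came from separate animals or cultures is not stated. Every SD here therefore measures a spread between 2 libraries that may be technical. The SEs and p-values rest on spreads of this kind, pooled over many genes, and carry the same limit. The samples are registered as mouse, but protocol, genome build and gene identifiers are of rat.

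LncRNAs are transcripts longer than the small RNAs that are not read into protein. Some act in the nucleus on chromatin or splicing, some in the cytoplasm on messenger RNA or microRNA (miRNA), and others are mainly the precursors of small RNAs cut from their introns or exons. Many are read from the strand opposite to a protein-coding gene or from the edge of a developmental gene cluster. In stem cells of the marrow such RNAs are known for roles in bone, cartilage and fat differentiation, and vesicles can carry them between cells.

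The gene table held 5350295 and 5355098 counts in the MSC-Exo libraries and 5947020 and 5598378 in the MSCATV-Exo libraries. Named lncRNA genes took 2409 and 2551 of these counts in the control vesicles and 2612 and 2567 in the statin vesicles. As a share this was 0.0450% and 0.0476% against 0.0439% and 0.0459%, so the groups overlapped. Vesicle RNA was pooled, and fewer vesicles with a transcript cannot be told apart from fewer copies per vesicle. The labelled cell type was checked with lists of marker genes. The 12 MSC markers found in the table summed to 333.1 to 368.8 RPKM (counts scaled to gene length and library total). Vim, which encodes the filament protein vimentin, alone gave 187.0 to 224.6 RPKM. The surface markers ranged from Vcam1, Nt5e and Cd44, at 1.29 to 6.15 RPKM, to Itgb1, at 26.9 to 35.7 RPKM. Of the 12 markers Col1a2, a collagen chain, was listed at 0 in all 4 libraries. The 8 leukocyte markers summed to 22.6 to 40.6 RPKM and none was at 0 in all libraries. The median marker had 12.85 RPKM in the MSC list and 4.44 RPKM in the leukocyte list. Ptprc, which encodes the leukocyte antigen CD45, had 104 and 55 counts in the control vesicles and 36 and 57 in the statin vesicles. The part of other cells in the lncRNA values was not tested.

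Named lncRNA genes were present at low levels, close to those of lncRNA genes without a name. The median member stood at 2.92 and 3.71 RPKM in the MSC-Exo libraries and at 3.22 and 2.34 RPKM in the MSCATV-Exo libraries. Uncharacterised lncRNA genes had medians of 2.58 to 3.45 RPKM and protein-coding genes 4.12 to 4.74 RPKM over the same libraries. Olfactory receptor genes, whose products detect odours in nasal neurons, had medians of 1.71 to 2.47 RPKM, and 31 of the 51 members lay above the median of the receptors' mean levels (2.72 RPKM). Above the 90th percentile of the receptors, 6.08 RPKM, were 13 members. How far member reads come from transcripts and how far from a common low level was not tested.

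**Figure D1:**
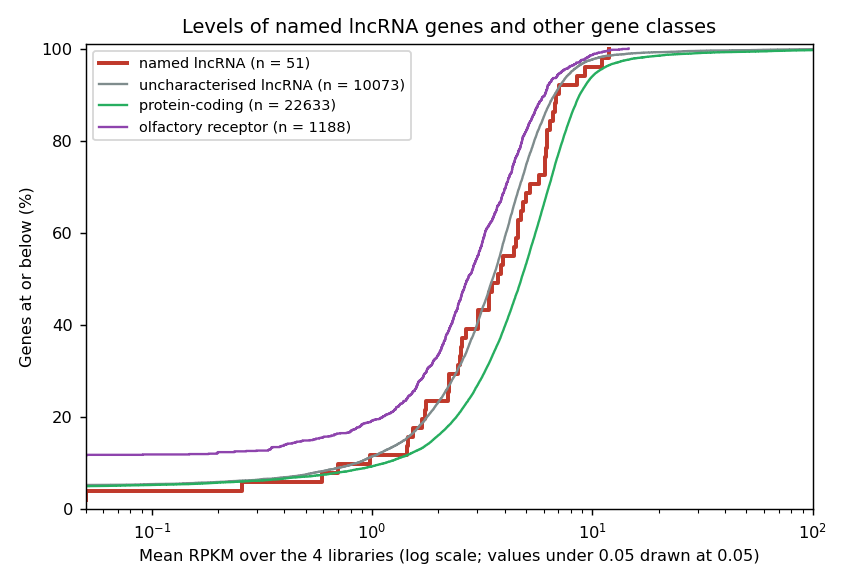
The horizontal axis gives the mean RPKM over the 4 libraries on a log scale and the vertical axis the percentage of genes at or below it, for 51 named lncRNA genes, 10073 uncharacterised lncRNA genes, 22633 protein-coding genes and 1188 olfactory receptor genes. The curve of the named lncRNA genes follows that of the uncharacterised ones, between the olfactory receptors and the protein-coding genes.

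Of the 51 members, 35 had at least 1 count in every library, 16 were at 0 in at least 1 library and 2 were at 0 in all 4. The pair without any count was Hoxaas3, an antisense transcript of the Hoxa cluster, and Kantr, a transcript beside Kdm5c. A count of 0 in a library allows up to 3 counts, or 0.504 to 0.561 when scaled to the library total without a TMM factor, by counting error alone. On the level scale the order was led by Khps1a, an antisense transcript of the sphingosine kinase gene Sphk1 (chromosome 10, 105498627 to 105499916, minus strand), with a mean of 11.9 RPKM. Its levels were 10.6 and 8.25 RPKM in MSC-Exo and 21.2 and 7.48 RPKM in MSCATV-Exo. The MSCATV-Exo libraries lay on both sides of the MSC-Exo libraries. Cistr, a transcript named for chondrogenesis (chromosome 7, 144345120 to 144345621, minus strand), followed with 2.98 and 12.6 RPKM against 16.4 and 12.1 RPKM. Gas5, the third, had 17.4 and 1.31 RPKM against 16.5 and 1.67 RPKM. These 3 neighbours in the order differed by less than the spread between libraries of 1 group.

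**Figure D2:**
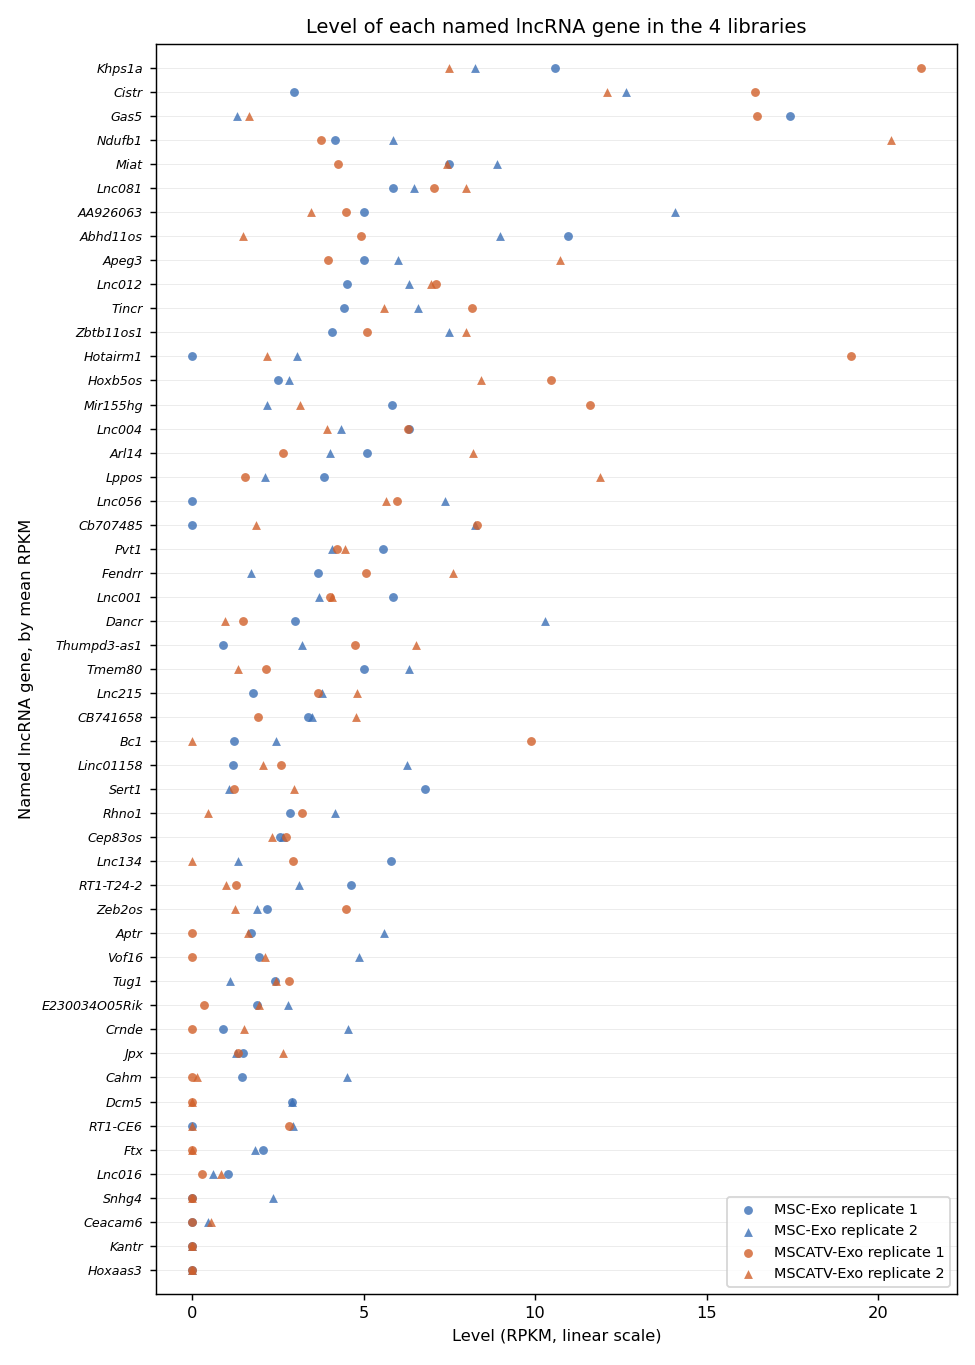
Each row is 1 of the 51 named lncRNA genes, ordered by mean level, and the horizontal axis gives the level in RPKM on a linear scale, with blue for MSC-Exo, orange for MSCATV-Exo, circles for replicate 1 and triangles for replicate 2. In Gas5 both circles lie near 17 RPKM and both triangles under 2 RPKM, while in Hoxb5os and Thumpd3-as1 both orange points lie to the right of both blue points.

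Counts followed the length of the gene. Across the 51 members the Spearman correlation of summed count with listed length was 0.701, given as a description over genes of the same libraries, and it was 0.812 over uncharacterised lncRNA genes. The 5 longest members, of 7456 to 12402 bases, are Lnc012, Miat, Pvt1, Lnc001 and Cep83os. They held 53.0% of the 10139 counts of all members. The precision of a fold change differed accordingly, with standard errors (SE) from 0.275 for Lnc012 to 2.79 for Dcm5 on the log2 scale and a median of 1.21.

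**Figure D3:**
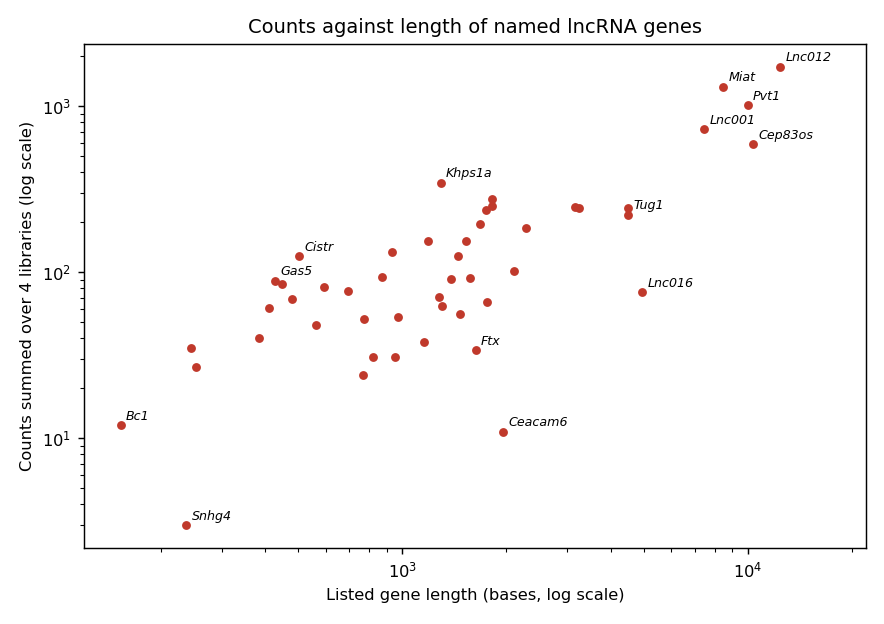
The horizontal axis gives the listed gene length in bases and the vertical axis the counts summed over the 4 libraries, both on log scales, with 1 point for each named lncRNA gene that had counts. The 5 longest genes sit at the top right, and the shortest, Bc1 with 153 bases, at the lower left.

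Whether atorvastatin changed the lncRNA content of the vesicles is the comparison that the series title poses. No named lncRNA gene passed the test between the groups. Of the 51, 41 passed the filter on low counts and entered a fit over 33480 genes with edgeR's quasi-likelihood test. An adjusted p (Benjamini-Hochberg over all genes tested) under 0.05 was reached by 0 of the 41, and by 0 of all genes, a background of 0%. An unadjusted p under 0.05 was given to 3 members (7.32%), RT1-T24-2, Ftx and Dcm5, beside 1236 of all genes (3.69%). DESeq2, a second count test, called 0 of the 37 members for which it gave an adjusted p, where its background was 0.329% of genes. It gave 5 of the 41 members an unadjusted p under 0.05, beside 2687 of the 33480 genes. Its smallest adjusted p among members was 0.196, for RT1-T24-2. In counts simulated for this comparison (33480 genes), with changes placed in genes of at least 32 CPM (counts scaled to the TMM-adjusted library total), a 2-fold change was found in 3 of 100 and a 4-fold change in 69 of 100, beside 3 false calls. Of the members 4 reach 32 CPM: Lnc001, Lnc012, Miat and Pvt1.

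In the statin vesicles 24 of the 41 tested members were higher and 17 lower. Their median log2 fold change, MSCATV-Exo over MSC-Exo, was 0.09. Over all tested genes 16535 were higher and 16945 lower, with a median of -0.01. With total-count scaling in place of TMM (edgeR's scaling factor between libraries) 19 members had a positive and 22 a negative value. That scaling moved the median of all genes by -0.10, and relative to it the member median was 0.07, where it was 0.10 with TMM. Without MSCATV-Exo replicate 1 the members' median turned to -0.23, with 18 of 45 higher, and without MSCATV-Exo replicate 2 to -0.05, with 21 of 46 higher. With members at 0 in a group set to their bound in place of the fitted value, the median stayed the same, since both lie far below it. No overlap between the libraries of both groups was seen for 14 of the 41 members (34.1%), 8 higher and 6 lower, beside 33.5% of all tested genes. The median member differed by 0.53 between the 2 MSC-Exo libraries and by 0.75 between the 2 MSCATV-Exo libraries, as an absolute log2 ratio of CPM + 0.5. Between the group means, each of 2 libraries, the same measure was 0.67. Over all tested genes it was 0.57 and 0.66 within the groups and 0.42 between the group means.

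**Figure D4:**
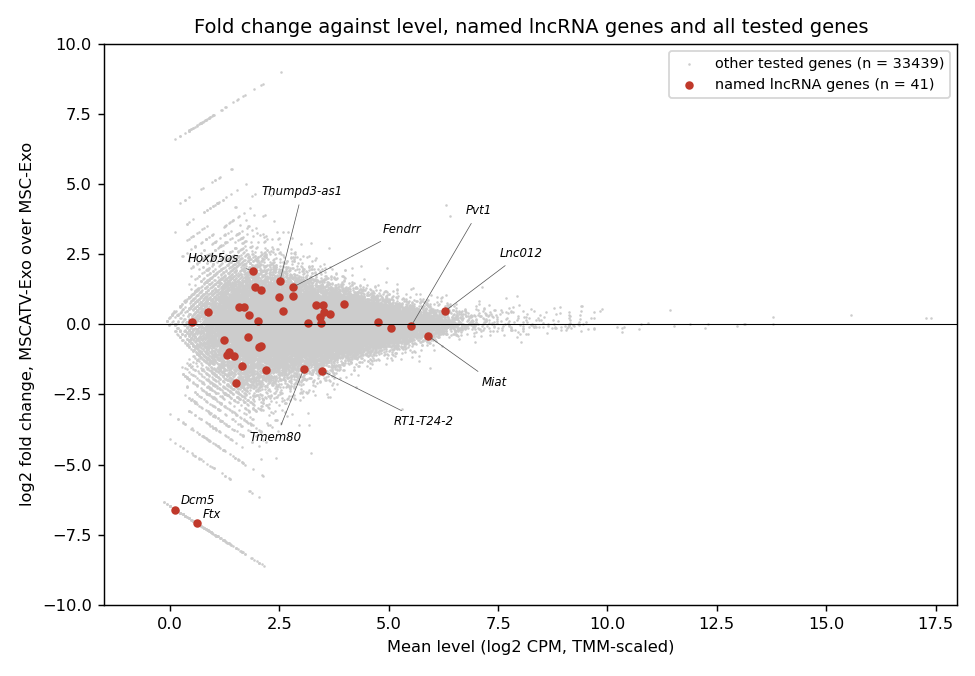
The horizontal axis gives the mean level of a gene as log2 CPM and the vertical axis its log2 fold change in MSCATV-Exo over MSC-Exo, with the 41 tested named lncRNA genes in red over all other tested genes in grey. The red points spread within the grey cloud, wide at low levels and narrow at high ones, and the lowest pair, Dcm5 and Ftx, had no counts in MSCATV-Exo.

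Host genes of small nucleolar RNAs (snoRNAs) carry in their introns the guides for chemical modification of ribosomal RNA, and their spliced RNA turns over with translation. Gas5 (chromosome 13, 78852523 to 78855844, plus strand), which also binds the glucocorticoid receptor, had 40 and 3 counts in the control vesicles and 42 and 4 in the statin vesicles. It was high in both libraries numbered 1 and low in both numbered 2, and its log2 fold change of 0.11 ± 1.45 (SE) went from -2.40 to 2.88 with a library left out. Dancr, which holds back the differentiation of bone and skin cells, had 9 and 31 counts against 5 and 3. Both MSCATV-Exo libraries lay below both MSC-Exo libraries, and the gene was under the count filter. Snhg4, the third host, had 3 counts in MSC-Exo replicate 2 and 0 in the other libraries. It lies inside the coding gene Matr3 on the same strand, which had 79 and 77 counts against 95 and 116.

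Members that hold miRNA genes or act on X inactivation differed in direction. Mir155hg, from which miR-155 of immune cells is cut, had 37 and 14 counts in the control vesicles and 82 and 21 in the statin vesicles. The groups overlapped, and its log2 fold change was 1.02 ± 0.92 (SE), turning to -0.29 without MSCATV-Exo replicate 1. Ftx (chromosome X, 74440265 to 74484164, minus strand), which spans the miRNA genes Mir374b and Mir421 and promotes Xist expression, had 18 and 16 counts in the control vesicles and 0 and 0 in the statin vesicles. With 3 counts taken as the most that the empty statin group allows, it was at least 11.4-fold lower, a bound for counting error only. The edgeR p for Ftx was 0.0225 and its adjusted p was 1. Jpx, an activator of Xist that neighbours Ftx, had 14 and 12 counts against 14 and 26. Its log2 fold change was 0.61 ± 1.33 (SE), and its groups overlapped with total-count scaling. Xist itself was not found under that symbol and was not analysed here.

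Lnc215 (chromosome 8, 45691196 to 45809133, plus strand) spans the miRNA genes Mir100, Mirlet7a-2 and Mir125b1 on its own strand. It had 30 and 64 counts in the control vesicles and 69 and 85 in the statin vesicles and a log2 value of 0.70 ± 0.62 (SE), and its groups overlapped with total-count scaling. Of the miRNA genes within it, Mirlet7a-2 had 10 and 1 counts in MSCATV-Exo and 0 in both MSC-Exo libraries, and Mir100 had none. Mir125b1 had 0 and 0 counts against 0 and 2, and Mir3596a, on the other strand, 0 and 0 against 22 and 1. Most counts of Mirlet7a-2 and Mir3596a came from MSCATV-Exo replicate 1. Vof16, an RNA named for ischemia, lies wholly inside Lnc215 on the same strand. Vof16 had 22 and 55 counts against 0 and 25, and its groups overlapped. Its log2 fold change of -1.64 ± 1.48 (SE) was opposite in sign to that of Lnc215. This value ranged from -8.27 to -0.65 with a library left out. The lowest value leaves out MSCATV-Exo replicate 2, after which no count remains in that group.

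Of the transcripts at Hox clusters and other developmental genes Hoxb5os, Fendrr and Cistr were tested, with positive log2 fold changes and none past the threshold. Hoxb5os (chromosome 10, 84139484 to 84155527, minus strand), read opposite to Hoxb5 and Hoxb6, had 8 and 9 counts in the control vesicles and 37 and 28 in the statin vesicles. Both statin libraries lay above both control libraries, and the log2 fold change was 1.92 ± 1.21 (SE; 1.68 to 2.12 with a library left out). Of the genes it overlaps, Hoxb6 had 47 and 58 counts against 73 and 124 and Hoxb5 had 76 and 55 against 54 and 125. The library kit does not mark the strand, so reads in the shared stretch cannot be assigned to 1 of them. Hotairm1, a transcript of the Hoxa cluster known from myeloid cells, had 0 and 4 counts against 28 and 3. Most of its reads came from MSCATV-Exo replicate 1, and it was under the count filter. Fendrr (chromosome 19, 52991283 to 53010509, minus strand), which is required for heart and body wall development, had 30 and 14 counts against 46 and 65. Its groups did not overlap, and its log2 fold change was 1.33 ± 0.81 (SE; 0.89 to 1.95 with a library left out). The coding gene RGD1304884, which spans Fendrr on the other strand, had 280 and 241 counts against 225 and 268. Cistr had 8 and 34 counts against 49 and 34, with a log2 fold change of 0.97 ± 0.98 (SE) that ranged from 0.27 to 2.37 with a library left out.

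Among the regulators known from the literature, Miat and Pvt1 were measured with SEs close to the smallest of all members, and no regulator passed the test. Miat (chromosome 12, 50447251 to 50461859, plus strand), which stays in the nucleus and binds splicing factors, had 340 and 404 counts in the control vesicles and 215 and 353 in the statin vesicles. In CPM this was 67.5 ± 8.87 (SD, n = 2) against 51.2 ± 16.7, a log2 fold change of -0.40 ± 0.31 (SE; -0.77 to -0.10 with a library left out). The higher statin library lay between the control libraries on this scale, and below both with total-count scaling. Tug1, which binds a repressive chromatin complex, had 58 and 27 counts against 76 and 62 (log2 ratio 0.70 ± 0.66, SE), and its groups did not overlap. Tincr, an RNA of skin differentiation that acts with the protein Staufen, had 43 and 64 counts against 88 and 57 (0.43 ± 0.60, SE). Crnde, known from colorectal tumours, had 4 and 20 counts against 0 and 7. Bc1, a small RNA that represses translation in rodent neurons, had 1 and 2 counts against 9 and 0.

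Pvt1 (chromosome 7, 102648394 to 102871316, plus strand), the neighbour of the growth gene Myc, had 297 and 217 counts in the control vesicles and 251 and 249 in the statin vesicles at the level of the gene. The groups overlapped and the log2 fold change was -0.04 ± 0.30 (SE), or 0.18 without MSC-Exo replicate 1. The deposited ncRNA table lists 21 transcripts of Pvt1, of 3592 to 6068 bases, where the gene counts 9966 bases. The median transcript had 116 and 110 counts in the control vesicles and 156 and 154 in the statin vesicles. In a fit over 13128 non-coding transcripts, 20 of the 21 had a positive log2 fold change, from -0.05 to 0.63 over the 21 with a median of 0.49. The groups did not overlap for 20 transcripts with TMM scaling and for 16 with total-count scaling. Among all tested genes 33.5% had such groups, and the share over all tested transcripts was not worked out. None passed edgeR (adjusted p = 1 for each) and the smallest DESeq2 adjusted p was 0.711. The transcripts share most of their reads, as their counts sum to 2605 in MSC-Exo replicate 1 against 297 for the gene, so they are not separate evidence. The longest of them had 137 and 146 counts against 156 and 176, which leaves 160 and 71 counts of the gene outside it in the control vesicles and 95 and 73 in the statin vesicles. That remainder was higher in MSC-Exo replicate 1 than in the other 3 libraries. LOC108351503, on the other strand, overlaps Pvt1 by 5057 bases and had 131 and 97 counts against 74 and 119. Whether its reads are part of the remainder was not tested.

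**Figure D5:**
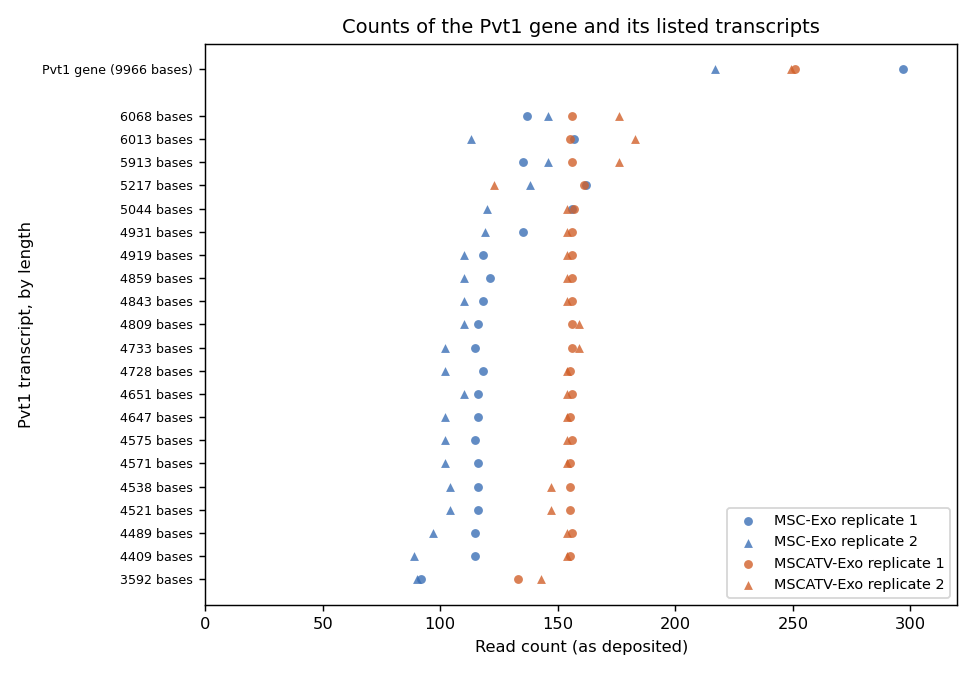
The horizontal axis gives the deposited read count and each row is 1 of 21 Pvt1 transcripts ordered by length, with the count of the whole Pvt1 gene in the top row; blue marks MSC-Exo, orange MSCATV-Exo, circles replicate 1 and triangles replicate 2. In every transcript shorter than 5044 bases both orange points lie to the right of both blue points, while in the gene row the MSC-Exo libraries, at 297 and 217, enclose the MSCATV-Exo libraries.

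Members named as antisense or opposite-strand transcripts had both signs. Thumpd3-as1 (chromosome 4, 145010882 to 145017388, minus strand), an antisense RNA of the RNA methylation gene Thumpd3, had 7 and 25 counts in the control vesicles and 41 and 53 in the statin vesicles. The groups did not overlap, and the log2 fold change was 1.54 ± 0.97 (SE; 0.88 to 2.73 with a library left out). The shorter of its 2 listed transcripts had 3 and 10 counts against 41 and 40, with an edgeR p of 0.0453 and an adjusted p of 1. Abhd11os, named for the hydrolase gene Abhd11, had 28 and 23 counts against 14 and 4, a log2 fold change of -1.49 ± 1.37 (SE; -2.66 to -0.84 with a library left out). Khps1a, the member with the highest mean level, had 73 and 57 counts against 163 and 54 (log2 ratio 0.74 ± 0.59, SE), turning to -0.29 without MSCATV-Exo replicate 1. Its partner Sphk1, which shares 1189 bases with it, had 195 and 156 counts against 258 and 218. Apeg3, antisense to the imprinted gene Peg3, had 25 and 30 counts against 22 and 56, and Peg3 had 402 and 474 against 395 and 406. By its listed coordinates Vom2r7, a pheromone receptor gene of 1648 bases, spans Apeg3 on the same strand. Those coordinates also cover Ceacam6, which starts at 81683500 on the same chromosome, where Apeg3 ends at 70235091. Whether Vom2r7 shares transcribed bases with Apeg3 is therefore uncertain. Vom2r7 had 23 and 18 counts against 6 and 2, lower in both statin libraries. Zbtb11os1 had 38 and 70 counts against 53 and 78 (0.27 ± 0.63, SE). Lppos had 18 and 10 counts against 8 and 58 and Zeb2os, whose antisense transcription bears on Zeb2 in epithelial change, had 15 and 13 against 34 and 9, so 1 statin library held most of the counts of each in its group. Cep83os overlapped between the groups, with 142 and 147 counts against 168 and 136 (0.07 ± 0.36, SE), a value that was -0.04 with total-count scaling. Aptr, a repressor of the cell cycle inhibitor gene Cdkn1a that overlaps Rsbn1l, had 12 and 39 counts against 0 and 12 (-2.09 ± 1.76, SE).

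Numbered lncRNAs, which have no described function in their symbols, included the member with the most counts. Lnc012 (chromosome 17, 10739085 to 10772616, plus strand) had 300 and 420 counts in the control vesicles and 524 and 483 in the statin vesicles. In CPM this was 54.0 and 76.7 against 95.9 and 86.1, and both MSCATV-Exo libraries lay above both MSC-Exo libraries. Its log2 fold change was 0.48 ± 0.28 (SE; 0.24 to 0.75 with a library left out), the smallest error among the members. The gene lies opposite to Cplx2, a synaptic gene, which had 196 and 95 counts against 123 and 165. Lnc081 had 57 and 63 counts against 76 and 81 (0.38 ± 0.54, SE), also without overlap. Lnc001 had 234 and 148 counts against 178 and 170 (-0.14 ± 0.35, SE) and Lnc004 had 57 and 39 against 63 and 37 (0.06 ± 0.69, SE; -0.06 with total-count scaling). Lnc016, Lnc056 and Lnc134 had 0 to 30 counts a library.

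Of the 51 members 9 carry the symbol of a protein although the table classes them as lncRNA, and 3 of the 4 smallest p-values fell among them. RT1-T24-2 (chromosome 20, 3242492 to 3246976, minus strand), of the rat class I histocompatibility genes, had 111 and 75 counts in the control vesicles and 34 and 25 in the statin vesicles. In CPM this was 16.8 ± 4.45 (SD, n = 2) against 5.34 ± 1.25. The groups did not overlap, and the log2 fold change was -1.65 ± 0.61 (SE; -1.91 to -1.36 with a library left out), with an edgeR p of 0.0214 and an adjusted p of 1. The whole of it is shared with RT1-T24-3 on the other strand, a coding gene of the same family, which had 53 and 33 counts against 10 and 0. LOC360231, which also spans it on the other strand, had 39 and 42 counts against 54 and 8, and its groups overlapped. Class I histocompatibility genes are close copies of each other, and how reads that fit several of them were counted is not given in the sources used here, so the level of either is uncertain. The summed leukocyte markers were also lower in both statin libraries (22.6 and 32.2 RPKM) than in both control libraries (34.6 and 40.6 RPKM). Itgam, an integrin chain of myeloid cells, had 60 and 82 counts against 84 and 132. It was higher in both statin libraries with TMM scaling but overlapped in RPKM (2.79 and 3.809 against 3.514 and 5.865). Endothelial marker sums were lower in both statin libraries as well, at 22.1 and 26.4 RPKM against 18.9 and 21.2. Erythroid sums were narrowly so, at 28.1 and 26.5 RPKM against 26.4 and 18.8. Hepatocyte sums overlapped (17.7 and 16.4 against 16.7 and 14.4), as did adipocyte sums (14.5 and 22.6 against 13.8 and 16.6). The median olfactory receptor gene was also lower in both statin libraries, at 2.466 and 2.356 RPKM against 1.707 and 2.275. RPKM values carry no TMM factor, and total-count scaling moved the median of all genes by -0.10. Whether the marker sums stay apart with TMM scaling was not worked out. The part of leukocytes or other cells in the RT1-T24-2 values was not tested. Tmem80, named for a transmembrane protein, had 61 and 77 counts against 29 and 17 (-1.58 ± 0.73, SE; -2.04 to -1.23 with a library left out). Both MSCATV-Exo libraries lay below both MSC-Exo libraries. Deaf1, with which Tmem80 shares 167 bases, had 115 and 52 counts against 123 and 141. With TMM scaling Deaf1 was higher in both statin libraries, but its groups overlapped in RPKM (6.32 and 2.855 against 6.081 and 7.405). Dcm5 had 12 and 12 counts against 0 and 0, at least 8.03-fold lower by the bound used for Ftx, with an edgeR p of 0.0403 and an adjusted p of 1. It lies inside Mcub, a regulator of mitochondrial calcium uptake, which had 18 and 30 counts against 43 and 9. Ndufb1, named for a subunit of respiratory complex I, had 10 and 14 counts against 10 and 51. Its groups overlapped, and most of the difference came from MSCATV-Exo replicate 2. The other 5 members with a protein symbol, Arl14, Ceacam6, Rhno1, RT1-CE6 and Sert1, overlapped between the groups, with 0 to 50 counts a library. AA926063, Cb707485, CB741658, E230034O05Rik and Linc01158, which carry clone or serial symbols, overlapped as well, except that AA926063, with 11 and 31 counts against 11 and 8, was lower in both statin libraries with total-count scaling.

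Other genes overlapped 29 of the 51 members by coordinates, protein-coding ones 18 of them. Ceacam6 is among the 18 only through the wide listed span of Vom2r7. Of the 22 members that no other gene overlaps, 16 were tested, 9 higher and 7 lower, with a median log2 fold change of 0.10. Of the 51 members, 45 have a single transcript in the ncRNA table, with counts equal to those of the gene in all 45. Over the 76 member transcripts, 66 were tested and edgeR called 0, where 0 of 13128 transcripts were called (0%). DESeq2 called 0 of the member transcripts and 0.236% of all transcripts. An unadjusted edgeR p under 0.05 was given to 4 member transcripts, and the share over all transcripts was not worked out. Among the 4 are the single transcripts of RT1-T24-2, Ftx and Dcm5, which repeat the result of the genes.

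The authors' deposited table of the gene comparison, whose test is not given in the sources used here, lists 47 of the members. In it 19 of the 47 (40.4%) have a q-value under 0.05, 9 upward and 10 downward with atorvastatin, where 34.3% of all its genes do. The smallest q-values in the authors' deposited table were 4.29e-08 for RT1-T24-2, 4.94e-06 for Tmem80, 3.35e-05 for Cahm and 6.19e-05 for Ftx. Cahm, a transcript that is methylated in colon tumours and that was picked here after its values were seen, had 9 and 28 counts in the control vesicles and 0 and 1 in the statin vesicles. Its ratio of scaled group sums was 37.1 with an exact 95% binomial interval from 6.26 to 1510, which covers counting error only. For Lnc012 and Miat the authors' deposited table gives q-values of 0.00115 and 0.000139, where edgeR gave both an adjusted p of 1.

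Genes for proteins that bind, process or degrade lncRNAs were not called either. Of 35 on the list 34 were tested, of which 13 had a positive and 21 a negative log2 fold change. The median was -0.10, beside -0.01 for all genes. Neither edgeR nor DESeq2 called any of them, and 1 had an unadjusted edgeR p under 0.05. This was Upf3b, a factor of nonsense-mediated decay, the pathway that degrades spliced Gas5, with 65 and 63 counts in the control vesicles and 18 and 22 in the statin vesicles (log2 ratio -1.68 ± 0.75, SE). Nop56, a core protein of snoRNA particles, had 59 and 73 counts against 147 and 112 (0.97 ± 0.46, SE). Celf1, which binds RNA in splicing and decay, had 238 and 266 counts against 335 and 409 (0.55 ± 0.28, SE). Groups without overlap were seen for 16 of the 34, these 3 among them, 8 higher and 8 lower, beside 33.5% of all tested genes.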

How the data were processed

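RNA of 4 exosome libraries was analysed. Per the submitters' processing notes, reads were aligned with TopHat2 to the rat build rn6; its version, the read counter and the annotation release are not given in the sources used here. The authors deposited raw counts per gene and per non-coding transcript, and RPKM values that equal counts divided by listed length and by the per-library total of the gene table (within 1% for every gene with a count). They also deposited a comparison table with group mean RPKM, a log2 ratio of those means, a p-value and a q-value, per the file headers. The NEBNext Ultra kit named in the labels does not mark strand.

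For the comparison MSCATV-Exo over MSC-Exo the counts went into edgeR 4.0.16 (R 4.3.3) with filterByExpr, TMM and a two-sided quasi-likelihood test, adjusted over all features tested after Benjamini and Hochberg (threshold 0.05) and with no replicate block. The SE is the absolute log2 fold change divided by the square root of F, and CPM are TMM-scaled. Genes had a biological coefficient of variation of 0.559. With 2 libraries against 2 an exact permutation test cannot go below 0.333, so none was run. Levels between genes are compared in RPKM. A floor of 3 counts stands for a count of 0; floors and intervals cover counting error only. The count test was tested on simulated data with 200 changed genes at 32 CPM or more, drawn at the trended dispersion.

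The members, the lists and the tests were chosen with earlier results of these data known. Genes were named by a rule: the 12 members with the highest mean RPKM, the 12 with the smallest edgeR p among those whose groups do not overlap, members at 0 in 1 group with at least 20 counts in the other, members of role lists at 1 CPM or more, and members called by any alternative (none). Further members are named to account for the set. The alternatives used DESeq2 1.42.0, total counts or RLE factors for scaling, other filters (none, or 1 CPM on average), a replicate block, fits without 1 library each, and limma 3.58.1 on log2(RPKM + 1) and log2(RPKM + 0.1) for genes with a mean RPKM of at least 1. Mouse reference tables were left unused.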

Additional observations from a re-analysis of the deposited data

How the results depend on the processing

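No named lncRNA gene was called under any of 12 other settings. The number of all genes called moved from 0 to 106 with DESeq2, 8 without a filter on low counts, 4 with the replicate block and 1 to 168 with a library left out, the highest being without MSCATV-Exo replicate 2, next to 27 when replicate 1 of that group was dropped. For transcripts of the ncRNA table it moved from 0 to 31 with DESeq2, 2 with the replicate block and 0 to 69 with a library left out. Fits with a library left out assume that the lone library varies like the others.

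The median log2 fold change of the tested members was 0.094, then -0.045 when scaled by total counts and -0.234 to 0.258 with 1 library dropped. Chosen after seeing the data were 2 further settings: without the 9 members with a protein's symbol the median was 0.267, and among members that no gene overlaps 9 of 16 were higher. With the replicate block 23 of 41 were higher (median 0.06). Same-numbered libraries did not deviate together (correlation of deviations -0.01 over 24016 genes). A single correlation cannot show whether they were paired in handling, and the labels name no batch.

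Scaling by total counts turned Gas5 to -0.047. Dropping 1 library changed the direction of Gas5 (-2.40 to 2.88), Apeg3 (-0.304 to 0.998), Khps1a (-0.288 to 1.35), Mir155hg (-0.294 to 1.86), Ndufb1 (-0.245 to 2.05), Pvt1 (-0.242 to 0.181) and Zbtb11os1 (-0.122 to 0.786). It changed for 21 of the tested members and stayed the same in all 4 fits for 19, while Dcm5 could be fitted only 2 times. The cause was not tested. At this depth 10 of the 51 members were under the count filter and 4 reached 32 CPM.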
